A study of Mus musculus with 18 samples.

Results

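The Hedgehog pathway genes described here are Ptch1, Hhip, Boc, Cdon, Smo, Sufu, Gli1, Gli2 and Gli3, 9 of the 54838 genes in the deposited table of read counts. They were chosen by name, for their place in the pathway, with earlier results of these data known. RNA was sequenced from 18 mouse cultures in 6 conditions, with 3 libraries in each. All cultures started from neural stem cells of the ventricular zone of wild type C57BL/6J brains at embryonic day 14. The NSP group held these cells as neurospheres, the floating clusters in which they divide in serum-free medium with EGF. The 24 h, 72 h and 1 week groups were plated in medium with 10% serum and without added EGF, in which the cells differentiate into astrocytes. The 24 h TNF and 72 h TNF groups received TNF, an inflammatory cytokine, at 50 ng/ml in the same medium. Every comparison with NSP therefore sets both another stage and another medium against the neurospheres, and these cannot be told apart. Cells were taken from single brains, and the study's methods speak of independent biological experiments for its data in general. Which of these libraries came from separate brains is not stated, so the p-values measure the spread between the libraries, which may be technical. The comparisons ask how this set of genes changed while neurospheres became astrocytes and whether TNF altered it.

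Hedgehog ligands bind PTCH1, a membrane receptor that otherwise holds the transducer SMO inactive. BOC, CDON and GAS1 help to present the ligand to PTCH1, and HHIP binds the ligand and keeps it from the receptor. Once SMO is released at the primary cilium, SUFU loosens its hold on the GLI transcription factors, GLI2 and GLI3 change from repressors to activators, and Gli1, Ptch1 and Hhip are transcribed as targets of the pathway itself. In the embryonic and adult ventricular zone the pathway is known for keeping neural stem cells dividing, and in mature astrocytes for setting the properties of some of their types.

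Total counts ran from 12509693 to 22549627 per library, with a median of 16794798. Replicate 1 of NSP, of 24 h TNF and of 72 h TNF stood apart from the other libraries of its condition, with a chi-square per degree of freedom between 40.5 and 55.4 against 3.71 to 28.6 in all other pairs. The summed level of 4 proliferation markers was 1320 to 2132 CPM (read counts scaled to library size, with TMM factors) in NSP and 9.90 to 14.7 CPM at 72 h. The 9 astrocyte markers summed to 4011 to 4268 CPM in NSP, 5809 to 7939 CPM at 72 h and 3466 to 3553 CPM at 1 week. None of them was under 0.5 CPM in every library of a condition. The 6 neural stem cell markers summed to 6317 to 7999 CPM in NSP, 4300 to 5798 CPM at 72 h and 3530 to 4514 CPM at 1 week. Markers of the oligodendrocyte lineage, 7 genes, summed to 1060 to 1366 CPM in NSP and 82.2 to 91.6 CPM at 72 h. Sox10 and Mbp were under 0.5 CPM in every 72 h library. The 6 neuron markers summed to 1616 to 2090 CPM in NSP, 1570 to 1624 CPM at 72 h and 1853 to 1912 CPM at 1 week. Dcx, Snap25 and Stmn2 were under 0.5 CPM in every 1 week library. Microglial markers stayed at or below 3.80 CPM and endothelial markers at or below 1.64 CPM in sum. In such bulk samples fewer cells of a type and less RNA per cell cannot be told apart.

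All 9 genes passed the filter on low counts, and 8 of them did so in every library. Gli1 passed it only through replicate 3 of 72 h TNF and replicates 2 and 3 of 1 week. Per kilobase of merged exon, Smo was the highest of the set in NSP at 24.3 CPM per kb, ahead of Cdon at 15.8, Ptch1 at 13.3 and Boc at 6.24 CPM per kb. Sufu, at 3.80 CPM per kb, and Gli3, at 2.20 CPM per kb, came next, and Hhip, Gli2 and Gli1 were each below 1 CPM per kb. At 1 week Smo was again highest at 26.7 CPM per kb, followed by Boc at 19.8 CPM per kb, and Cdon had dropped to 1.10 CPM per kb. In the plot of CPM in all libraries Cdon and Hhip went down with differentiation, Boc went up, Gli3 rose and then fell, and Sufu and Gli2 had no called change.

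**Figure D1:**
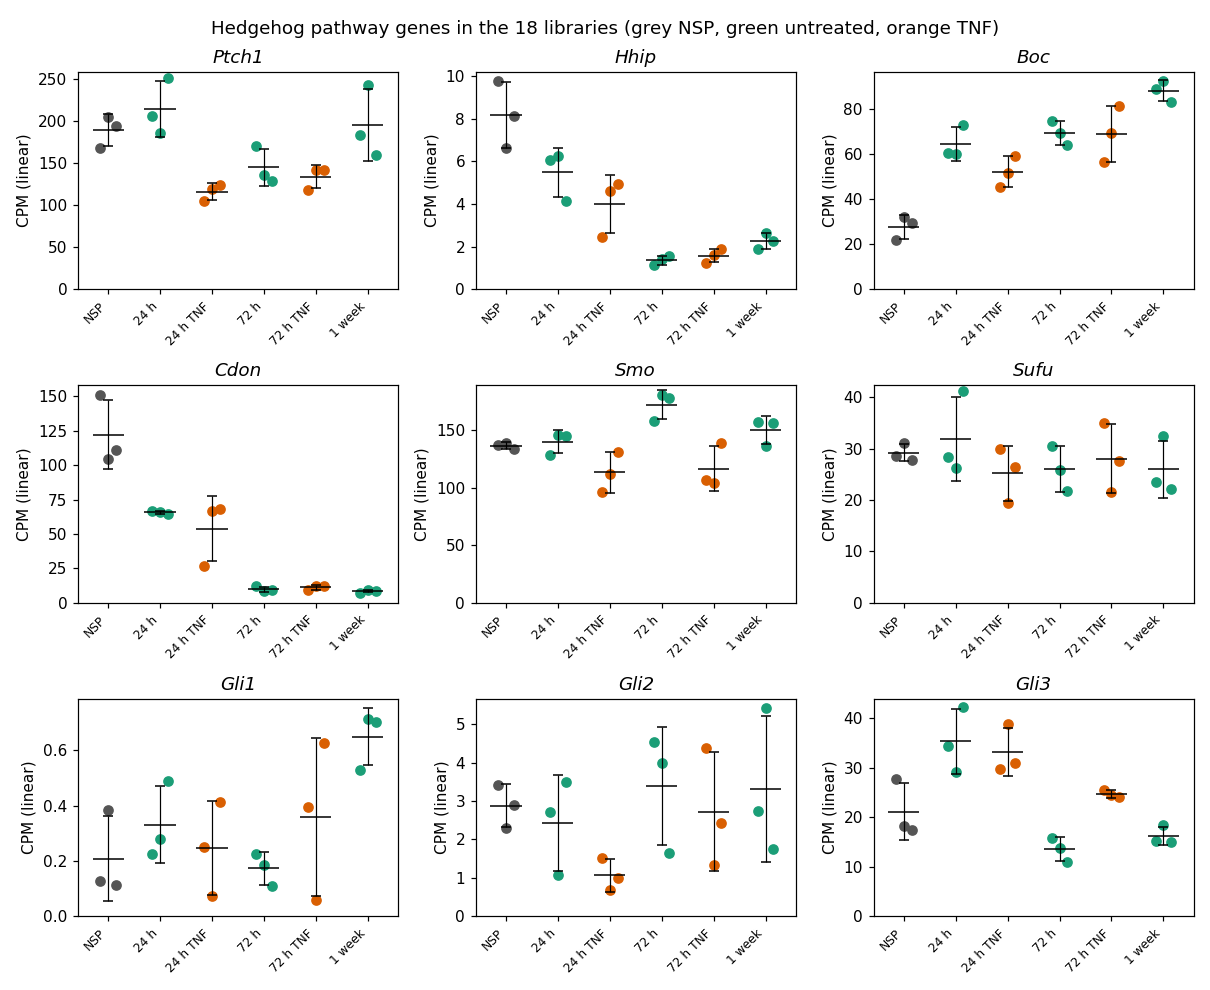
Level of each Hedgehog pathway gene in CPM (linear axis from 0, a different scale for each gene) in the 18 libraries by condition; points are libraries, the long bar is the mean and the error bar the SD of 3 libraries. Cdon falls from 104.5 to 150.8 CPM in NSP to 7.37 to 9.36 CPM at 1 week, while Boc rises from 21.7 to 32.3 CPM to 83.2 to 92.7 CPM.

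Counts of called members are read against the whole table, in which 20067 genes were tested. At 24 h against NSP 3 of the 9 members were called (edgeR, adjusted p under 0.05), beside 52.7% of all genes tested. Of these, Boc and Gli3 were higher, as were 27.2% of all genes, and Cdon was lower, as were 25.5%. At 72 h against NSP 6 members were called, beside 55.3% of all genes, with 2 of them higher (28.1% of all genes) and 4 lower (27.2%). At 1 week against NSP 4 members were called, beside 58.6%, with 2 higher (29.6% of all genes) and 2 lower (29.1%). One of the former is Gli1, tested only through libraries in which it was high, and without it 3 of 8 members were called. From 24 h to 72 h 4 members were called, all lower, beside 24.8% of all genes in either direction and 12.6% in the lower direction. From 72 h to 1 week 0 members were called by edgeR or by DESeq2, beside 6.63% of all genes (2.68% higher and 3.96% lower), and 4 of the 9 had an unadjusted p under 0.05 in edgeR. With TNF at 24 h 1 member was called, lower, beside 3.5% of all genes (2.18% higher and 1.32% lower). With TNF at 72 h 1 member was called higher and 1 lower, beside 9.56% of all genes (4.35% higher and 5.21% lower). Between 72 h TNF and 24 h TNF 2 members were called, both lower, beside 13.3% (5.38% higher and 7.93% lower). In the comparisons with NSP the share of members called thus lay on both sides of the share of all genes, at 33.3%, 66.7% and 44.4% of the 9. These comparisons share the NSP libraries and are not independent of each other.

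**Figure D2:**
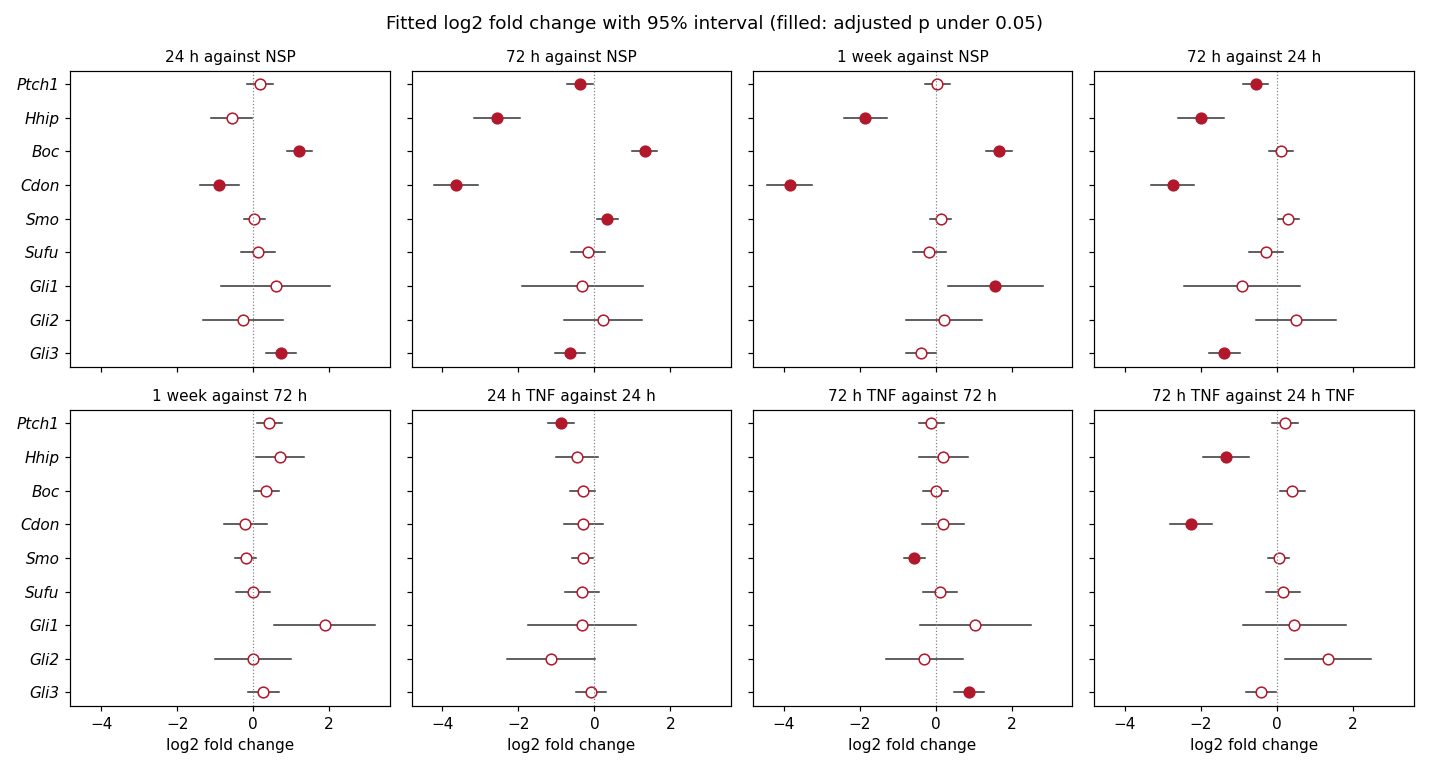
Fitted log2 fold change (x axis) of each Hedgehog pathway gene (y axis) in 8 comparisons, with the 95% interval as a line; filled points have an edgeR adjusted p under 0.05. The intervals of Cdon at 72 h and at 1 week against NSP lie wholly below -3, those of Boc at 24 h, 72 h and 1 week wholly above 0.88.

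The co-receptors Cdon and Boc moved in opposite directions from the first day of differentiation. Cdon (chr9:35421128-35507652, plus strand, GRCm38), which encodes an immunoglobulin and fibronectin repeat protein that binds the ligand with PTCH1, stood at 150.8, 104.5 and 111.3 CPM in NSP and at 66.3, 66.1 and 64.7 CPM at 24 h. It then stood at 11.9, 8.27 and 9.29 CPM at 72 h and at 7.37, 9.36 and 8.79 CPM at 1 week. Every NSP library was above every 24 h library, and every 24 h library above every 72 h library, whereas 72 h and 1 week overlapped. Against NSP Cdon was 1.86-fold lower at 24 h (log2 fold change -0.89, SE 0.25, edgeR adjusted p = 0.0053), 12.5-fold lower at 72 h (-3.64, SE 0.28, adjusted p = 3.09e-09) and 14.4-fold lower at 1 week (-3.85, SE 0.28, adjusted p = 1.45e-09). The step from 24 h to 72 h was 6.70-fold (log2 fold change -2.75, SE 0.27, edgeR adjusted p = 9.76e-07). From 72 h to 1 week the log2 fold change was -0.21, with a 95% interval from -0.78 to 0.36. In the same libraries the sums of the proliferation, oligodendrocyte lineage and neural stem cell markers were lower, as given above, and their part in the course of Cdon was not tested.

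Boc (chr16:44485049-44558897, minus strand), the paralogue of Cdon with the same kind of repeats, stood at 21.7, 32.3 and 29.3 CPM in NSP and at 60.6, 60.0 and 73.2 CPM at 24 h. At 72 h its libraries were at 74.7, 69.4 and 64.2 CPM and at 1 week at 89.0, 92.7 and 83.2 CPM. No NSP library reached any library of a later condition, and the 24 h and 72 h libraries overlapped. Boc was up-regulated 2.32-fold at 24 h (log2 fold change 1.22, SE 0.16, edgeR adjusted p = 5.08e-06), 2.50-fold at 72 h (1.32, SE 0.16, adjusted p = 1.21e-06) and 3.18-fold at 1 week (1.67, SE 0.16, adjusted p = 5.52e-08). Most of the rise was present at 24 h, since 72 h against 24 h gave a log2 fold change of 0.10 with a 95% interval from -0.22 to 0.43. All 1 week libraries lay above all 72 h libraries, yet the difference was not called (log2 fold change 0.35, edgeR adjusted p = 0.216). It was called when the 3 libraries that stood apart were left out (adjusted p = 0.0369), although none of them is in that comparison.

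Set against each other per exon length, the pair changed order. Boc over Cdon was 0.250 to 0.536 in the NSP libraries, 1.57 to 1.96 at 24 h, 10.8 to 14.5 at 72 h and 16.4 to 20.9 at 1 week. Cdon was thus the more abundant of the pair per length in all 3 NSP libraries, and Boc in all 15 libraries of differentiating cells. In CPM not divided by length, Boc was below Cdon in 24 h replicates 1 and 2 and above it in replicate 3. For replicates 1 and 2 these were 60.6 and 60.0 CPM against 66.3 and 66.1 CPM. In 24 h TNF it was below Cdon in replicates 2 and 3 and above it in replicate 1. The order at 24 h thus depends on the merged exon lengths, and these counts do not tell which Cdon transcript was made. With TNF the ratio was 1.34 to 2.98 at 24 h and 9.80 to 11.8 at 72 h. The highest value of 24 h TNF was replicate 1, in which Cdon stood at 26.5 CPM against 66.8 and 67.9 CPM in the other 2 libraries. Without replicate 1, 24 h TNF against 24 h gave a log2 fold change of Cdon of 0.02, compared with -0.29 in the full set. Neither value was called.

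**Figure D3:**
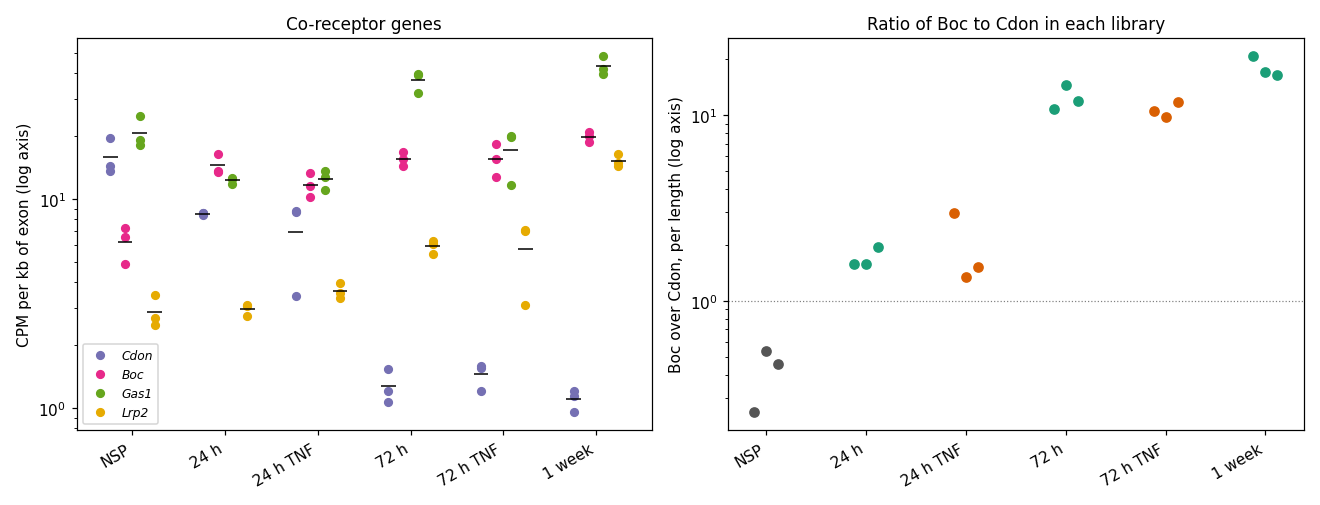
Left, level of 4 co-receptor genes in CPM per kb of merged exon (log axis) by condition, with libraries as points and means as bars; right, ratio of Boc to Cdon per length (log axis) in each library, with a dotted line at 1. All 3 NSP libraries lie below a ratio of 1, and the 1 week libraries lie between 16.4 and 20.9.

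Gas1 and Lrp2, the other co-receptors of the pathway list, followed neither course. Gas1, a membrane-anchored protein that binds the ligand beside PTCH1, was at 61.3 ± 10.7 CPM in NSP (SD, n = 3), 36.4 ± 1.35 CPM at 24 h, 109.7 ± 12.2 CPM at 72 h and 128.3 ± 13.4 CPM at 1 week. It was down-regulated at 24 h (log2 fold change -0.75, edgeR adjusted p = 0.00167) and then higher than in NSP at 72 h (0.84, adjusted p = 0.000451) and at 1 week (1.07, adjusted p = 3.89e-05). Lrp2, which encodes the large endocytic receptor megalin, was at 41.6 to 57.9 CPM in NSP and 240.5 to 273.3 CPM at 1 week. Its log2 fold change against NSP was 0.05 at 24 h (edgeR adjusted p = 0.859), where Boc had risen. It was 1.04 at 72 h (edgeR adjusted p = 0.000431) and 2.40 at 1 week (adjusted p = 3.64e-08).

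Hhip, the ligand antagonist, declined in the same direction as Cdon at a lower level of expression. Hhip (chr8:79965851-80058006, minus strand) stood at 9.76, 6.64 and 8.13 CPM in NSP and 6.04, 6.25 and 4.15 CPM at 24 h. It was at 1.13, 1.41 and 1.54 CPM at 72 h and 1.90, 2.63 and 2.25 CPM at 1 week. The 72 h and 1 week libraries did not overlap with each other or with the earlier stages. Hhip was 5.93-fold lower at 72 h than in NSP (log2 fold change -2.57, SE 0.29, edgeR adjusted p = 4.78e-07) and 3.62-fold lower at 1 week (-1.86, SE 0.27, adjusted p = 1.03e-05). At 24 h the log2 fold change was -0.57 (edgeR adjusted p = 0.0674), and it was called only when NSP replicate 2, the lowest NSP library, was left out (adjusted p = 0.0478). From 24 h to 72 h it fell by 2.00 on the log2 scale (edgeR adjusted p = 5.51e-05), and from 72 h to 1 week the log2 fold change was 0.71 (adjusted p = 0.188). Over the 18 libraries the log2 CPM of Hhip and Cdon had a Pearson correlation of 0.938, and that of Boc and Cdon was -0.758. These describe libraries that share conditions, so no test is given.

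The promoter windows of Hhip and Cdon are shown because these 2 members fell most, a choice made after their values were seen. They are RefSeq windows on GRCm38.p6, from 250 bases before to 50 bases after the annotated start, printed 5′ to 3′ on the strand of the gene, with every CG dinucleotide in capitals. Hhip is chr8:80057959-80058258 on the minus strand and Cdon is chr9:35451826-35452125 on the plus strand.
Hhip: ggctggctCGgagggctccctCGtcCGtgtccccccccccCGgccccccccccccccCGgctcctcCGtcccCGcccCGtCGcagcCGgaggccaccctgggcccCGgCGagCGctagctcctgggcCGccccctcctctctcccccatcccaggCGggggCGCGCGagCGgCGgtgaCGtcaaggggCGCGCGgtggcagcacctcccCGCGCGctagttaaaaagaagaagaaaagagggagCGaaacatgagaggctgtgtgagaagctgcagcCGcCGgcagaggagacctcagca
Cdon: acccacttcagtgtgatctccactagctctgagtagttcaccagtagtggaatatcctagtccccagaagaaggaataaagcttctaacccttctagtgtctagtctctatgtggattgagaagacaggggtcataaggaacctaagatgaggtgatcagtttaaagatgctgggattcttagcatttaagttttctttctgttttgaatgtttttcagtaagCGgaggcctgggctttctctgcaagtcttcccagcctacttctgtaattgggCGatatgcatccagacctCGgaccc
The Hhip window held 30 CG dinucleotides and the Cdon window 3, beside a median of 7 over all 32851 promoters in the table. The RefSeq start of Hhip was 2 bases from the start of the GENCODE gene, whereas that of Cdon was 30948 bases inside it, so the Cdon window belongs to a shorter transcript and these counts per gene do not tell which transcript was made. Windows were found for 7 of the 9 members (not for Gli1 and Boc). The RefSeq starts of Ptch1 and Gli3 also lay away from the GENCODE start, by 7863 and 488 bases. The GLI core sequence GACCACCCA, searched on both strands, was in 0 of these 7 and in 83 of all promoters (0.253%). This says only that these letters are not in these windows.

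Ptch1, the receptor and itself a target of the pathway, changed less than the co-receptors during normal differentiation. Ptch1 (chr13:63508328-63573598, minus strand) stood at 167.9, 204.2 and 194.1 CPM in NSP and 205.9, 184.9 and 250.6 CPM at 24 h. It stood at 170.0, 135.4 and 128.6 CPM at 72 h and 182.6, 242.0 and 159.1 CPM at 1 week. Neighbouring stages overlapped except 24 h and 72 h. Between these Ptch1 fell 1.48-fold (log2 fold change -0.56, SE 0.16, edgeR adjusted p = 0.0139), but the call was lost without 24 h replicate 3, 72 h replicate 2 or 72 h replicate 3 (adjusted p of 0.113, 0.0654 and 0.0714). Against NSP the value at 72 h was close to the threshold (log2 fold change -0.38, edgeR adjusted p = 0.0478), its libraries overlapped with NSP, and the call was lost without NSP replicate 2 or 3 or 72 h replicate 2 or 3, with adjusted p between 0.103 and 0.156. At 1 week Ptch1 gave a log2 fold change of 0.04 against NSP, with a 95% interval from -0.29 to 0.38.

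Smo (chr6:29735503-29761365, plus strand), the membrane transducer, changed little during normal differentiation. Its libraries were at 137.6, 139.0 and 133.6 CPM in NSP, 128.7, 146.3 and 145.1 CPM at 24 h, 158.2, 180.9 and 177.9 CPM at 72 h, and 157.6, 136.3 and 156.5 CPM at 1 week. The 72 h libraries were all above the NSP and the 24 h libraries. Smo was 1.26-fold higher at 72 h than in NSP (log2 fold change 0.33, SE 0.13, edgeR adjusted p = 0.0372). The call was lost without a filter on low counts (adjusted p = 0.183), with RLE factors (0.0536), with DESeq2 (0.062) and in 5 of 6 fits that each left out 1 library (all but that without 72 h replicate 1), with adjusted p up to 0.114. Sufu (chr19:46396896-46488804, plus strand), which binds GLI proteins and restrains them, lay between 19.4 and 41.3 CPM in all 18 libraries. It was called in none of the 8 comparisons, with log2 fold changes from -0.33 to 0.15 and 95% intervals that stayed within -0.78 and 0.60.

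Among the GLI factors, Gli3 had the highest level per exon length in all 18 libraries and was called in 4 of the 8 comparisons. Gli3 (chr13:15463235-15730026, plus strand), the main repressor of the family, stood at 27.7, 18.2 and 17.5 CPM in NSP and rose to 34.4, 29.1 and 42.3 CPM at 24 h. It was at 15.9, 13.8 and 10.9 CPM at 72 h and 15.2, 18.3 and 15.1 CPM at 1 week. The 24 h libraries were above all those of the other untreated conditions. Gli3 was 1.67-fold higher at 24 h than in NSP (log2 fold change 0.74, SE 0.19, edgeR adjusted p = 0.00311) and fell 2.61-fold from 24 h to 72 h (-1.38, SE 0.19, adjusted p = 3.82e-05). The lower level at 72 h than in NSP (log2 fold change -0.64, edgeR adjusted p = 0.00817) was not called without NSP replicate 1, the highest NSP library (-0.41, adjusted p = 0.0659), or with only these 2 groups in the fit (adjusted p = 0.0518). At 1 week the log2 fold change against NSP was -0.38 (edgeR adjusted p = 0.0921), and it was called only without NSP replicate 3 (-0.50, adjusted p = 0.0474). An opposite-strand gene with exons that overlap those of Gli3, Gm6556, had 2 to 13 counts per library.

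Gli2 (chr1:118834132-119053619, minus strand), the main activator, lay between 0.67 and 5.42 CPM in the 18 libraries and was called in none of the 8 comparisons. Between 72 h TNF and 24 h TNF its log2 fold change was 1.34 (edgeR adjusted p = 0.112), and it was called there without a filter on low counts (1.37, adjusted p = 0.00231). In NSP it was at 2.88 ± 0.56 CPM and at 1 week at 3.30 ± 1.90 CPM (SD, n = 3). The log2 fold change between them was 0.21 with a 95% interval from -0.79 to 1.22, and the 1 week libraries held 62, 99 and 25 counts. Gli1 (chr10:127329882-127341974, minus strand), the target gene most often used as a readout of the pathway, had 1 to 13 counts per library. It had 2, 7 and 2 counts in NSP, 3, 5 and 6 at 24 h, 3, 3 and 2 at 72 h, and 12, 13 and 10 at 1 week. All 1 week libraries were above all NSP libraries, at 0.53, 0.71 and 0.70 CPM against 0.13, 0.38 and 0.11 CPM. The difference was called (log2 fold change 1.56, SE 0.60, edgeR adjusted p = 0.0311), but Gli1 entered the test only through libraries in which it was high. The call was lost with DESeq2 (adjusted p = 0.0849) and without NSP replicate 1 or 3 or 1 week replicate 2 or 3, with adjusted p between 0.0659 and 0.12. The opposite-strand genes Arhgap9 and Gm47200, with exons that overlap those of Gli1, had 0 counts in every library.

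Against untreated cells, TNF gave 1 called member at 24 h and 2 others at 72 h. At 24 h Ptch1 was down-regulated, at 104.5, 119.4 and 123.4 CPM with TNF against 205.9, 184.9 and 250.6 CPM without. The groups did not overlap, and the difference was 1.85-fold (log2 fold change -0.88, SE 0.16, edgeR adjusted p = 0.00325), called in all 6 fits that left out 1 library, with adjusted p up to 0.0300. At 72 h Ptch1 stood at 117.9, 141.5 and 141.2 CPM with TNF, which overlapped with the untreated libraries (log2 fold change -0.11, 95% interval from -0.45 to 0.22). For Ptch1 the difference between the TNF effects at 72 h and 24 h was 0.77 on the log2 scale (SE 0.23), with an unadjusted p of 0.003 and an edgeR adjusted p of 0.181, so it was not called.

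At 72 h Gli3 and Smo moved in opposite directions with TNF. Gli3 was at 25.5, 24.5 and 24.1 CPM with TNF and 15.9, 13.8 and 10.9 CPM without, with no overlap. It was 1.83-fold higher (log2 fold change 0.87, SE 0.19, edgeR adjusted p = 0.0062), and adjusted p stayed at or below 0.0495 when any 1 library was left out. Smo was at 106.3, 104.4 and 139.3 CPM with TNF and 158.2, 180.9 and 177.9 CPM without, again with no overlap, and was 1.48-fold lower (log2 fold change -0.56, SE 0.13, edgeR adjusted p = 0.00964). The call for Smo was lost without 72 h replicate 2 (adjusted p = 0.0544) or 72 h TNF replicate 2 (0.0538). At 24 h neither gene was called, with log2 fold changes of -0.09 for Gli3 and -0.31 for Smo. Marker sums moved with TNF at 72 h as well, without overlap. Astrocyte markers summed to 3529 to 4917 CPM with TNF and 5809 to 7939 CPM without, and oligodendrocyte lineage markers to 143.9 to 184.4 CPM with TNF and 82.2 to 91.6 CPM without. The 4 endothelial markers, near 0, summed to 1.04 to 1.52 CPM with TNF and 0.55 to 0.83 CPM without. At 24 h the sums of these lists overlapped between treated and untreated libraries. The 7 mural or fibroblast markers summed to 4.62 to 7.04 CPM with TNF at 24 h and 1.89 to 2.77 CPM without. Of these, 4 were under 0.5 CPM in every library with TNF and 5 in every library without. The part of these cells in the TNF results was not tested.

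The TNF effect on Gli3 differed between the times by 0.96 on the log2 scale (SE 0.27), with an unadjusted p of 0.002 and an edgeR adjusted p of 0.149. In that test of TNF by time 0 of the 9 members were called by edgeR or by DESeq2, beside 0.458% of all genes, and 2 (Gli3 and Ptch1) had an unadjusted p under 0.05 in edgeR. Gli3 and Ptch1 were called by edgeR without a filter on low counts (adjusted p of 0.0284 and 0.0358). The course from 24 h to 72 h was called for Cdon and Hhip with TNF too. Cdon fell from 26.5, 66.8 and 67.9 CPM to 9.34, 12.3 and 12.0 CPM (log2 fold change -2.26, SE 0.26, edgeR adjusted p = 2.51e-05). Hhip fell from 2.45, 4.62 and 4.95 CPM to 1.24, 1.62 and 1.87 CPM (-1.34, SE 0.29, adjusted p = 0.00437). Neither pair of groups overlapped. For Boc the difference between 52.2 ± 6.91 and 69.1 ± 12.5 CPM (SD, n = 3) was not called (log2 fold change 0.40, edgeR adjusted p = 0.0949) but was called without 72 h TNF replicate 1 (adjusted p = 0.031).

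In the wider pathway list of 47 genes, which includes the 9 members, 42 were tested. At 24 h 11 of these were higher than in NSP and 8 lower, at 72 h 13 were higher and 9 lower, and at 1 week again 13 and 9. These are 45.2%, 52.4% and 52.4% of the list, beside 52.7%, 55.3% and 58.6% of all genes. Without Gli1, Shh and Scube2, which passed the filter in few libraries, they are 48.7%, 56.4% and 51.3%. The median log2 fold change of the list was 0.00 at 24 h, 0.07 at 72 h and 0.14 at 1 week, beside 0.06, 0.05 and 0.06 over all genes tested. The list as a whole thus had no common direction.

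The ligand genes were at the edge of detection. Shh had 6, 3 and 1 counts in NSP and 24, 17 and 12 at 1 week, or 0.20 ± 0.16 and 0.94 ± 0.11 CPM (SD, n = 3), and was called higher (log2 fold change 2.24, edgeR adjusted p = 0.00293), but like Gli1 it entered the test only through libraries in which it was high, the 3 of 1 week and 2 of 72 h TNF. Ihh with 0 to 7 counts and Dhh with 0 to 2 counts per library were too low to be tested.

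Beside the members, the rises called against NSP in the list were led by Gpc4. This gene, for a heparan sulfate proteoglycan of the cell surface, rose from 12.1 ± 3.91 CPM in NSP to 168.1 ± 64.6 CPM at 24 h and 349.4 ± 145.9 CPM at 1 week (SD, n = 3), with log2 fold changes of 3.80 (edgeR adjusted p = 1.38e-07) and 4.86 (adjusted p = 3.96e-09). Its relative Gpc6 rose by 1.66 on the log2 scale at 24 h and 2.40 at 1 week, and Scube3, of the family that helps to release the ligand, by 1.63 and 2.61. Spop, an adaptor that marks GLI proteins for degradation, rose from 52.2 ± 1.77 to 207.0 ± 7.08 CPM at 72 h (SD, n = 3, log2 fold change 1.99, edgeR adjusted p = 4.86e-09). In the other direction, Evc and Evc2, partners of SMO in the cilium, were lower at 24 h (log2 fold changes of -0.92 each, edgeR adjusted p of 0.00137 and 0.00124). Arrb2, a beta-arrestin, was lower at 24 h, 72 h and 1 week (-0.67, -0.75 and -0.76), and Prkaca, a catalytic subunit of protein kinase A that phosphorylates GLI proteins, at 72 h and 1 week (-0.65 and -0.69).

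From 24 h to 72 h 9 genes of the pathway list rose and 6 fell, beside 12.2% and 12.6% of all genes, led by Gas1 (log2 fold change 1.59) and Evc2 (1.16) upward and, after Cdon, Hhip and Gli3, by Ptch1 and Gsk3b (-0.54) downward. From 72 h to 1 week 2 rose (Lrp2 by 1.36 and Gpc6 by 1.04) and 1 fell (Evc, -0.72), beside 2.68% and 3.96% of all genes. With TNF at 24 h only Ptch1 was called of the 42, beside 3.5% of all genes. At 72 h 1 was higher with TNF (Gli3) and 4 were lower, or 11.9% of the list beside 9.56% of all genes. Among those lower was Gas1 at 51.0 ± 14.1 CPM against 109.7 ± 12.2 CPM (SD, n = 3, log2 fold change -1.11, edgeR adjusted p = 0.000377). Scube2 was called lower as well (edgeR adjusted p = 0.0403), at 0 to 1 counts per library with TNF against 3 to 9 without, and had entered the test only through 2 NSP libraries and 1 of 24 h.

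**Figure D4:**
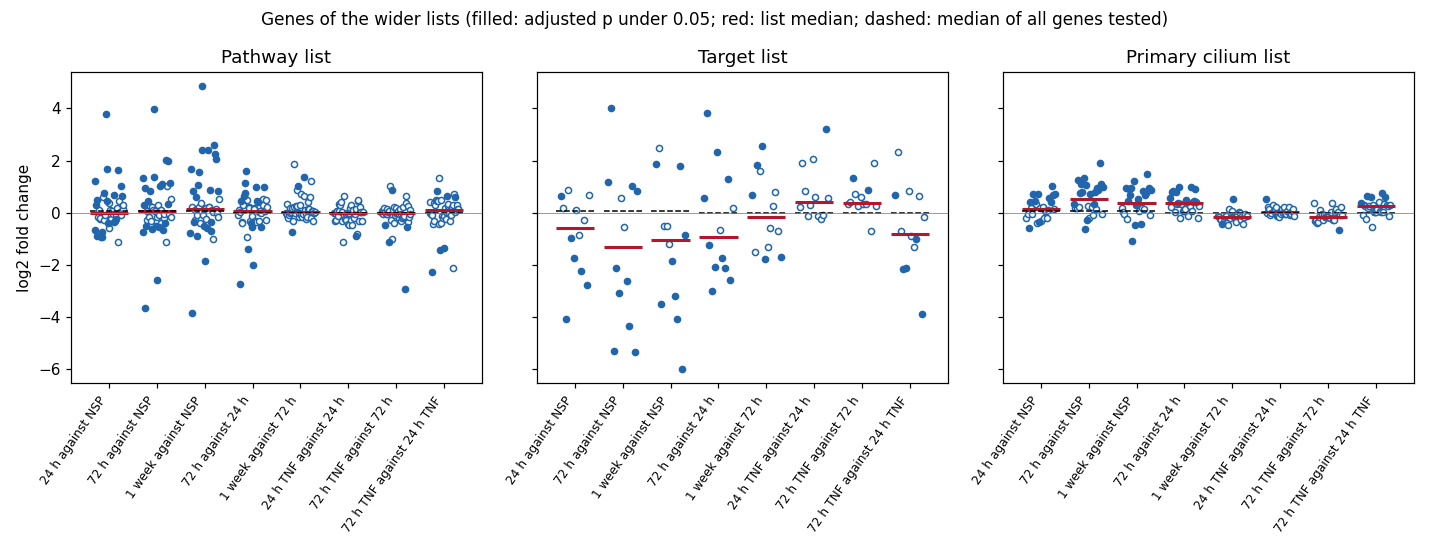
Log2 fold change (y axis) of each tested gene of the pathway list (42 genes), the target list (12) and the primary cilium list (26) in 8 comparisons (x axis); filled points have an edgeR adjusted p under 0.05, red bars are list medians and dashed bars the medians of all genes tested. The target list spreads furthest, with a median of -1.32 at 72 h against NSP, while the cilium list has a median of 0.52 there.

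Genes known as Hedgehog targets in neural and other tissue, 18 in the table and 12 tested, included the largest falls of the 3 lists. At 72 h against NSP 6 were lower and 4 higher, with a median log2 fold change of -1.32 beside 0.05 over all genes. That is 83.3% of the list called, beside 55.3% of all genes (28.1% higher and 27.2% lower). Without Spp1 and Bmp4, which passed the filter only through libraries in which they were high, 5 of 10 were lower and 3 higher, with a median of -1.32. Ccnd1 (log2 fold change -5.32) and Olig2 (-4.36) were among the falls called, and Bcl2 (1.19) and Sfrp1 (1.01) among the rises. Spp1 (osteopontin) and Bmp4 were called too. Spp1 had 36 to 70 counts in NSP and 1 in each 72 h library, and Bmp4 0 to 1 counts in NSP and 3 to 15 at 72 h. The libraries that let them into the test were those of NSP and 24 h TNF for Spp1 and 3 of 72 h and 72 h TNF for Bmp4, so no fold is given for them. Ccnd1, which encodes cyclin D1, went from 440.9 ± 198.8 CPM in NSP to 25.8 ± 3.27 CPM at 24 h (SD, n = 3, edgeR adjusted p = 3.91e-07), and Olig2, a transcription factor of the oligodendrocyte lineage, from 414.6 ± 25.2 to 88.5 ± 7.60 CPM (adjusted p = 4.02e-08). Ccnd1 and Olig2 also belong to the dividing and oligodendrocyte lineage cells whose markers fell, and the part of those cells was not tested. At 24 h 5 targets were lower and 1 higher, and at 1 week 6 were lower and 2 higher, or 50.0% and 66.7% of the list beside 52.7% and 58.6% of all genes. Without Bmp4 and Spp1, 4 of 10 were lower and 1 higher at 24 h (50.0%). At 1 week 5 of 10 were then lower and 2 higher (70.0%). With TNF at 24 h Spp1 had 23 to 80 counts against 3 to 9 without, and it was the only target called, tested in that comparison only through the group in which it was high. Without Spp1 and Bmp4, 0 of 10 targets were called there, beside 3.5% of all genes. Ccnd1 and Olig2 were higher with TNF at 72 h (log2 fold changes of 1.34 and 0.88, edgeR adjusted p of 0.0429 and 0.00629), beside the marker sums given with Gli3 and Smo. They are 16.7% of the list, beside 9.56% of all genes. Olig2 is itself among the oligodendrocyte lineage markers in those sums.

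Genes of the primary cilium, through which the vertebrate pathway signals, rose more often than they fell in the comparisons with NSP and from 24 h to 72 h. Of the 26 in the list, all tested, 9 were higher than in NSP at 24 h, 15 at 72 h and 14 at 1 week, beside 27.2%, 28.1% and 29.6% of all genes. The genes that were lower numbered 2, 2 and 3, beside 25.5%, 27.2% and 29.1% of all genes. In either direction 42.3%, 65.4% and 65.4% of the list were called, beside 52.7%, 55.3% and 58.6% of all genes. From 24 h to 72 h 13 were higher and 0 lower (edgeR), beside 12.2% of all genes called higher and 12.6% called lower. The median log2 fold change at 72 h was 0.52, beside 0.05 over all genes. Tctn2, of the ciliary transition zone, went from 10.5 ± 0.83 to 39.1 ± 1.25 CPM (SD, n = 3, log2 fold change 1.90, edgeR adjusted p = 2.61e-09), followed by Dync2li1 (1.35) of the retrograde motor and Bbs4 (1.24) of the BBSome. Hspb11 (-0.61) and Ift140 (-0.29), both of intraflagellar transport, were the 2 that were lower. The summed level of 5 ependymal markers, among them Foxj1 of cells with motile cilia, rose from 21.0 to 35.0 CPM in NSP to 234.5 to 327.3 CPM at 72 h. Tmem212 was under 0.5 CPM in every 72 h library. The part of the ependymal markers in this pattern was not tested. From 72 h to 1 week 1 was higher and 1 lower, beside 2.68% and 3.96% of all genes, with a median of -0.16. With TNF 1 cilium gene was called at 24 h (Arl13b, 0.53) and 1 at 72 h (Tctn2, -0.65), where the median of the list was -0.16. Each is 3.85% of the list, beside 3.5% of all genes at 24 h and 9.56% at 72 h.

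Genes with the course most like that of each member over the 18 libraries, by Pearson correlation of log2 CPM among 12719 genes (12720 for Gli1), were as follows. Dock10 (0.990), Peli1 (0.982) and Lamb1 (0.979) were nearest to Cdon. Cacnb1 (0.973), Shroom3 (0.964) and Notch2 (0.961) were nearest to Boc, and Pbx3 (0.971), Map7d2 (0.960) and Akr1b10 (0.959) to Hhip. The nearest genes of the other members had lower correlations. Nav2 (0.931), Dgkh (0.929) and Slmap (0.904) came nearest to Gli3, Hspbp1 (0.927), Chpf (0.926) and Pkdcc (0.922) to Smo, and Mark2 (0.917), Pcdhgc3 (0.913) and Kmt2b (0.912) to Sufu. For Ptch1 they were Adgrl1 (0.867), Cdh24 (0.853) and Mvb12b (0.846), for Gli2 Astn1 (0.910), Zbtb39 (0.859) and Safb2 (0.848), and for Gli1 Myo9b (0.805), Osbpl7 (0.794) and Micall1 (0.786). No member of the set was among the nearest 3 genes of another.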

How the data were processed

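The data are raw read counts per gene for 18 libraries of total RNA, grouped by their labels. The authors depleted ribosomal RNA and prepared stranded libraries. Reads were trimmed (Trim Galore, after FastQC), aligned (STAR, with mm10 in the submitters' processing notes) and counted per gene (SAMtools, featureCounts), and the authors deposited the counts without normalization. They tested with DESeq2. Versions of the tools that made the counts, strand setting and handling of reads shared by genes are not given in the sources used here. RNA quality is given only as a wide range that reaches low values, not per library. Whether the libraries that stood apart came from degraded RNA is thus unknown. All columns were used. Identifiers of 54809 of 54838 genes were matched to GENCODE (GRCm38), the source of names, positions and exon lengths.

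The main test was the edgeR (version 4.0.16, R 4.3.3) quasi-likelihood test with TMM factors, filterByExpr by condition (minimum count 10) and 1 mean per condition over all 18 libraries, which leaves 12 residual degrees of freedom. Benjamini-Hochberg adjustment ran over all 20067 genes tested, with a threshold of 0.05. CPM uses TMM factors, and log2 CPM a prior count of 2. The fit was also run on simulated counts with the same spread for every gene and no libraries that stood apart. These data differ from that setting, so the run is not used as support here. Total counts of 12509693 to 22549627 set the precision, and this depth covers counting error only, since reads carry no molecular identifiers. No pair of replicates agreed within sampling noise, the lowest chi-square per degree of freedom being 3.71.

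The members and the lists were chosen with earlier results of these data known. Named genes are the 9 members, the 3 ligands, Gas1, up to 3 genes called in each direction from each list and comparison, and the 3 genes most correlated with each member (mean of at least 1 CPM, no predicted or Riken names). Evc2, Prkaca, Arrb2, Spop and other genes set beside these, and the 2 promoters printed, were chosen after their values were seen. A gene that this rule also covers is not reported here. A column that carries the number 4 in its name but the library suffix of 72 h replicate 3 was used as that library. Same-numbered libraries deviated together (correlation of deviations above 0.1 in all 3 pairs) only between 72 h TNF and 24 h TNF, at 0.255 to 0.291. Alternatives were DESeq2 (version 1.42.0), RLE factors, other filters, only the groups compared, a replicate block, a fold condition and leaving out libraries.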

Additional observations from a re-analysis of the deposited data

How the results depend on the processing

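Of the log2 fold changes of single members under all alternatives, 0 changed sign together with a call. The member counts ran from 3 to 4 (24 h against NSP), 4 to 6 (72 h against NSP), 3 to 4 (1 week against NSP), 3 to 4 (72 h against 24 h), 0 to 0 (1 week against 72 h), 1 to 1 (24 h TNF against 24 h), 1 to 2 (72 h TNF against 72 h), 2 to 3 (72 h TNF against 24 h TNF) and 0 to 0 (TNF by time) when single libraries were left out. The counts over all genes fell to 360 to 367 for TNF at 24 h without any 1 untreated 24 h library, to 610 and 831 at 1 week against 72 h without 72 h replicate 2 or 3 and 730 to 793 without any 1 week library, and to 1233, 1409 and 1620 at 72 h TNF against 24 h TNF without 24 h TNF replicate 2 or 3 or 72 h TNF replicate 3. For TNF at 72 h they were 2922, 965 and 1049 without 72 h replicate 1, 2 or 3, and for TNF by time 25 to 31 without any 1 library of 24 h or replicate 2 or 3 of 72 h, and 58 and 50 without 72 h TNF replicate 2 or 3. A group left with 2 libraries was assumed to vary like the others. The calls for Cdon, Boc and Hhip against NSP at 72 h and 1 week held in every alternative tried, while those for Smo and Ptch1 at 72 h and Gli1 at 1 week did not. The causes of the changes below were not tested, except that a fold condition can only remove calls. Counts of 1 to 13 per library limit what can be said of Gli1, and 0 to 24 what can be said of the ligands.

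When calls also had to reach a log2 fold change of 1, the members called were 1 at 24 h, 3 at 72 h, 0 for TNF at 24 h and 0 for TNF at 72 h. The pathway list gave 5, 10 and 11 at 24 h, 72 h and 1 week against NSP, 5 at 72 h against 24 h, 0 and 2 for TNF at 24 h and 72 h, and 3 at 72 h TNF against 24 h TNF. The target list gave 1 for TNF at 72 h and 3 at 72 h TNF against 24 h TNF. The cilium list gave 1, 6 and 3 against NSP and 0 in the 5 other comparisons. Over all genes this condition left 5774, 6481 and 7020 against NSP, 2681 and 708 for the later steps, 373 and 987 for TNF at 24 h and 72 h, and 1340 at 72 h TNF against 24 h TNF, compared with 10576, 11104, 11766, 4970, 1331, 703, 1919 and 2670.

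Without a filter 2 members (Gli3 and Ptch1) were called for TNF by time, where the main count was 0, with 3 of the pathway and 2 of the target list, and Gli2 was called at 72 h TNF against 24 h TNF (adjusted p = 0.00231). The target list then gave 3 and 4 for TNF at 24 h and 72 h and 8 at 72 h TNF against 24 h TNF, the pathway list 6 at 1 week against 72 h, and the cilium list 7 at 72 h against 24 h, 0 at 1 week against 72 h and 0 for TNF at 24 h. Over all genes it gave 1276 for TNF at 24 h and 470 for TNF by time, where the main counts were 703 and 92. With at least 5 counts in total, 1 cilium gene at 1 week against 72 h and 1 pathway gene for TNF by time were called. With at least 10 counts in every library the target list gave 3, 4 and 6 at 24 h against NSP, 1 week against NSP and 72 h against 24 h and 0 for TNF at 24 h, the cilium list 2 for TNF at 72 h, and all genes 56 for TNF by time.

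DESeq2 called 2 cilium genes for TNF at 72 h and, for TNF by time, 1 pathway gene, 1 target gene and 239 of all genes. With only the groups compared, 1 member was called for TNF at 72 h and 1 at 72 h TNF against 24 h TNF, where Hhip was lost (adjusted p = 0.0604). The pathway list then gave 5 at 1 week against 72 h, 2 for TNF at 72 h and 1 at 72 h TNF against 24 h TNF, the target list 2 and the cilium list 3 in the last of these, and the cilium list 0 for TNF at 24 h. Over all genes that gave 2001 at 1 week against 72 h, 1277 for TNF at 72 h, 828 at 72 h TNF against 24 h TNF and 38 for TNF by time.

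A replicate block lost Ptch1 at 72 h against NSP (adjusted p = 0.0631) and left 1 cilium gene at 1 week against 72 h and 1 target gene for TNF at 72 h. It changed no other member call, also not between 72 h TNF and 24 h TNF. With 72 h replicate 3 unpaired in the replicate block, chosen after seeing the data, 1 member (Smo) was called for TNF at 72 h, since Gli3 was lost (adjusted p = 0.0703), as were Gli3 and Ptch1 at 72 h against NSP (0.0607 and 0.23) and Ptch1 at 72 h against 24 h (0.115). The target list then gave 4 at 72 h against 24 h, 2 at 1 week against 72 h and 0 for TNF at 72 h, the pathway list 1 and 2 and the cilium list 0 at 1 week against 72 h, and all genes 3286 at 72 h against 24 h, 617 at 1 week against 72 h, 986 for TNF at 72 h and 24 for TNF by time.

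With replicate 1 of NSP, 24 h TNF and 72 h TNF left out together, also chosen after seeing the data, more genes were called in later comparisons: 1 member (Boc), 7 pathway and 7 cilium genes at 1 week against 72 h, 2 pathway and 2 target genes for TNF at 24 h, 9 pathway, 5 target and 3 cilium genes for TNF at 72 h, 13 pathway, 9 target and 13 cilium genes at 72 h TNF against 24 h TNF, and 1 pathway and 1 target gene for TNF by time. Gli3 at 72 h (adjusted p = 0.0633) and Gli1 at 1 week (0.1) against NSP were lost. Over all genes it gave 3224 at 1 week against 72 h, 1277 for TNF at 24 h, 4685 at 72 h TNF against 24 h TNF and 348 for TNF by time.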
